A study of Mus musculus with 2 samples.

Results

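The 10 genes of the TGF-beta and myofibroblast contractile programme described here were followed across mesenchymal states and cell classes of adherent mouse marrow cells. They were taken by symbol from the feature lists: Acta2, Tagln, Myl9 and Cnn1 of the contractile apparatus, the matricellular genes Ccn1, Ccn2, Tgfbi and Postn, and the ligands Tgfb1 and Tgfb2. All 10 were found among the 32285 listed genes, and each passed a floor of 10 CPM (UMIs scaled to a class total of 1000000) in mesenchymal-like cells of both libraries. The WT library came from Slc31a1 flox/flox mice without Cre, and the cKO library from Prrx1-Cre+/-; Slc31a1 flox/flox littermates. Both groups were C57BL/6J and both carried the floxed allele of Slc31a1, which encodes a copper importer. Prrx1-Cre is active in limb mesenchyme and not in blood cells. Marrow of femur and tibia grew in alpha-MEM holding 10% fetal bovine serum, unattached cells were washed off at 48 h, and no drug or osteogenic medium was given. The ages of the mice and the number pooled per library are not given in the labels. With 1 library per group no test between groups exists. Ratios below are cKO over WT, and every interval is a 95% interval that covers counting error only, so it compares these 2 libraries and not the genotypes.

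TGF-beta is secreted in a latent complex, is released by integrins and proteases, and signals through a pair of serine/threonine kinase receptors to SMAD transcription factors. In fibroblasts it drives the myofibroblast programme, in which smooth muscle actin and its partners form contractile stress fibres and matricellular proteins are laid into the matrix. The same contractile genes are read out by SRF with its actin-sensitive cofactors, and the CCN genes by YAP and TAZ with TEAD factors. Marrow stromal cells spread on stiff plastic in serum are known to take up parts of this programme in culture.

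In the GENCODE annotation of GRCm38 the 10 members are protein-coding genes. Acta2 lies at chr19:34241090-34255590 on the minus strand, Tagln at chr9:45929619-45936058 (minus), Myl9 at chr2:156775420-156781658 (plus) and Cnn1 at chr9:22099216-22109630 (plus). Ccn1 lies at chr3:145646976-145649981 (minus), Ccn2 at chr10:24595442-24598683 (plus), Tgfbi at chr13:56609523-56639562 (plus) and Postn at chr3:54361109-54391037 (plus). Tgfb1 lies at chr7:25687002-25705077 (plus) and Tgfb2 at chr1:186622792-186705989 (minus). On the other strand, Tagln overlaps Pcsk7 and Gm48529, Ccn2 overlaps Gm15270, and Tgfb2 overlaps Gm26169 and Gm29491. The sources used here do not say whether counting used strand, so the levels of Tagln, Ccn2 and Tgfb2 could include reads of those partners.

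RefSeq start sites on GRCm38.p6 were matched for 8 of the 10 members, all but Tagln and Ccn2 (Postn with 2 starts), and the 250 bases before each start were searched on both strands. The searched motifs were the CArG box, which SRF binds, the TEAD motif GGAATG and the SMAD element CAGAC. A form of the CArG box with 1 core base other than A or T was added after the strict form gave no match before Acta2. Among all 32851 RefSeq promoters of that length, 1.47% held a CArG box, 7.24% the form with 1 differing base, 12.6% GGAATG and 42.2% CAGAC. Acta2, Myl9 and Ccn1 are shown because they carry the contractile and CCN patterns described below. They are printed 5′ to 3′ on the gene's own strand, and capitals mark CArG boxes, their form with 1 differing base, and GGAATG or its reverse complement.
Acta2, chr19:34255374-34255623, minus strand: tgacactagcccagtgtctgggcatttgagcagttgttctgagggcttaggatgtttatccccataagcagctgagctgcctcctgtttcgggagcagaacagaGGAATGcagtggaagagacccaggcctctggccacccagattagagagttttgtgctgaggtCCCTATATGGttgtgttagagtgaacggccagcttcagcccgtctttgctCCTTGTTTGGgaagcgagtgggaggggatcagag
Myl9, chr2:156775214-156775463, plus strand: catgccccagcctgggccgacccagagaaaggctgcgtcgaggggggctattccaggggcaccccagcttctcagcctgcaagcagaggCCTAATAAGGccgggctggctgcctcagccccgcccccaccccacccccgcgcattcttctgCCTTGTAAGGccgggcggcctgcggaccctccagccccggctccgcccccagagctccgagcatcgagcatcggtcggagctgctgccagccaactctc
Ccn1, chr3:145649986-145650235, minus strand: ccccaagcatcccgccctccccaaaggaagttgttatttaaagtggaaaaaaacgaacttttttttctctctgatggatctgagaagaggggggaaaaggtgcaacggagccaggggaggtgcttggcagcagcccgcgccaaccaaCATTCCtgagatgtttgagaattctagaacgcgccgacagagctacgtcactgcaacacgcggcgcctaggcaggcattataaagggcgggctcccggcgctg

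Before Acta2, 2 CArG boxes with 1 differing base were found, CCCTATATGG at 84 to 75 bases before the start and CCTTGTTTGG at 34 to 25, and GGAATG lay at 146 to 141. The Myl9 window held 1 strict CArG box, CCTAATAAGG at 161 to 152, and 1 form with a differing base, CCTTGTAAGG at 99 to 90. Before Ccn1, CATTCC lay at 103 to 98, and no CArG box of either form was found in these bases. The Cnn1 and Tgfb1 windows held none of the 4 motifs. CAGAC lay on the minus strand before Acta2, and matches of CAGAC before Tgfbi, Tgfb2 and Postn are not shown because it occurs in many promoters. None of the marked motifs overlapped another. GENCODE places the outermost starts of Acta2 and Myl9 inside the printed windows. A match describes letters only.

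The WT library held 152398639 UMIs in 9125 barcodes and the cKO library 126031142 UMIs in 6140; 7637 and 5263 cells passed the filters, and 6 barcodes of passing cells occurred in both libraries. In WT 3837 cells (50.2%) and in cKO 1441 (27.4%) were mesenchymal-like, although the labels call the samples mesenchymal stem cells; 37.1% and 49.2% were macrophage-like. Mesenchymal-like cells had a median of 12936 UMIs in WT and 61830 in cKO. A cluster of low depth held 54.8% of them in WT and 18.1% in cKO. Summed levels of 11 neutrophil markers in mesenchymal-like cells came to 551.0 CPM (WT) and 192.4 CPM (cKO), and those of 11 macrophage markers 429.8 and 216.3 CPM, with none of either list at 0. Slc31a1 itself stood at 42.3 CPM in WT against 14.5 in cKO mesenchymal-like cells, a ratio of 0.343 (0.322 to 0.366), and at 69.6 and 72.8 CPM in macrophage-like cells, a ratio of 1.05 (0.982 to 1.11). The sequenced 3' ends need not lie in the deleted part of the gene, so this value is a check of the labels only as far as the transcript level follows the deletion.

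The 4 contractile genes had ratios between 0.964 and 1.15 in mesenchymal-like cells, while Ccn1, Ccn2 and Tgfbi were higher and Tgfb1 and Tgfb2 lower in cKO. None of the 10 members was 1.5-fold higher or lower. Among the 8951 genes that reached 10 CPM in 1 or both libraries, 0.581% were at least 1.5-fold higher and 1.14% at least 1.5-fold lower. Ratios above 1 were found for 6 members and below 1 for 4, where 41.7% of these 8951 genes were above 1. The median log2 ratio was 0.12 over the members and -0.03 over all genes.

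Acta2, which encodes alpha smooth muscle actin, had 2905 CPM in WT (2895 to 2916) against 2904 in cKO (2892 to 2915), with a ratio of 0.999 (0.994 to 1.00). Its direction changed with the processing, since the ratio was 0.981 in cells with at least 20000 UMIs, 1.02 with TMM scaling and 1.04 with equal weight per cell. Tagln encodes transgelin, an actin-binding protein. It had 1709 CPM in WT against 1974 in cKO (ratio 1.15, 1.15 to 1.16). Myl9, a regulatory light chain of non-muscle and smooth muscle myosin, had 461.7 CPM in WT against 445.1 in cKO (ratio 0.964, 0.951 to 0.977), which became 1.03 with equal weight per cell. Cnn1 encodes calponin, an inhibitor of actomyosin ATPase. It had 168.6 CPM in WT against 181.9 in cKO (ratio 1.08, 1.06 to 1.103). All 4 ratios lay well inside the 1.5-fold limits, and the 4 genes did not share a direction.

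Ccn2 (CTGF) and Ccn1 (CYR61) encode secreted matricellular proteins that bind integrins and are often used as readouts of YAP activity. Ccn1 had 337.5 CPM in WT against 432.2 in cKO, and Ccn2 655.8 and 792.0 CPM. The ratios were 1.28 (1.26 to 1.30) for Ccn1 and 1.21 (1.19 to 1.22) for Ccn2. Tgfbi, an integrin-binding matrix protein named for its induction by TGF-beta, had 36.0 CPM in WT against 43.6 in cKO (ratio 1.21, 1.15 to 1.27). Postn encodes periostin, a matrix protein of periosteum and wound stroma. It had 509.4 CPM in WT against 555.0 in cKO (ratio 1.09, 1.08 to 1.103). All 4 matricellular members thus stood higher in cKO, by less than 1.5-fold.

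The ligand Tgfb2 had 430.0 CPM in WT against 369.9 in cKO (ratio 0.860, 0.848 to 0.873). Tgfb1 had 62.3 CPM in WT against 56.1 in cKO (ratio 0.899, 0.866 to 0.934). Both ligands were lower in cKO under each of the 11 alternatives of cells and scaling, with ratios from 0.852 to 0.875 for Tgfb2 and from 0.863 to 0.924 for Tgfb1. Ccn1, Ccn2, Tgfbi and Postn were higher in cKO under each of them.

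Depth was unequal within this class, so cells on either side of 20000 UMIs were also read apart. In cells with at least 20000 UMIs (1688 WT, 1147 cKO) none of the members was past 1.5-fold, where 0.709% of genes were higher and 0.619% lower. Ccn1 had 324.2 CPM in WT against 428.0 in cKO (ratio 1.32, 1.30 to 1.34) and Ccn2 631.7 against 780.9 (ratio 1.24, 1.22 to 1.25). In cells under 20000 UMIs (2149 WT, 294 cKO) Ccn2 alone was past it, at 811.5 CPM in WT against 1273 in cKO (ratio 1.57, 1.501 to 1.64), beside 3.55% of genes higher and 4.98% lower. Tagln stood at 1096 CPM in WT against 1098 in cKO in these cells, and at 1804 against 1994 in the deeper ones.

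Because the low-depth cells were so unequally shared, mesenchymal states were drawn from cells with at least 20000 UMIs (1688 WT and 1147 cKO), each thinned to that depth and clustered without the 10 members. State 0 (437 WT and 309 cKO cells) and state 5 (74 and 72) were cycling-like, the latter led by mitotic genes such as Cenpa and Cdc20. State 1 (450 and 295) stayed unnamed and was led by Cxcl14, Sfrp1, Lrrc32 and Actg2. State 2 (344 and 294) was pre-osteoblast-like, with Fat3 and Ibsp in the lead. State 3 (230 and 146) was pericyte or smooth muscle-like by Rgs5 (88.8 CPM in WT, 97.4 in cKO), Notch3 (55.6 and 72.2) and Myh11 (13.6 and 13.7), but the pericyte markers Kcnj8, Abcc9 and Higd1b were each under 5 CPM there. State 4 (153 and 31) was unnamed and led by blood cell transcripts such as S100a8 and Ngp. There, summed neutrophil markers reached 2336 CPM in WT against 1241 in cKO, compared with 128.2 to 200.6 CPM in states 0 to 2.

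All 4 contractile genes peaked in state 1, in both libraries. Acta2 stood there at 3853 CPM in WT against 3726 in cKO, and at its lowest in the pre-osteoblast-like state 2, at 2027 CPM in WT against 2065 in cKO. The highest level was thus 1.90 times the lowest in WT and 1.80 times in cKO, a wider span than the difference of Acta2 between the libraries in any state. Between these ends, states 3 and 4 overlapped in both libraries, and states 4 and 5 in cKO. State 0 held 3113 and 3163 CPM, state 3 held 2531 and 2677, state 4 held 2540 and 2651, and state 5 held 2766 and 2616.

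Tagln followed Acta2 at the top, with 2401 CPM in WT against 2618 in cKO in state 1. At the bottom, Tagln was lowest in state 4 in WT (1269 CPM) and in state 2 in cKO (1589 CPM). Myl9 spanned 653.6 CPM in state 1 to 301.9 CPM in state 2 in WT, and 594.1 to 274.3 CPM in cKO. Cnn1 had the widest span of the 4: 265.3 CPM in state 1 and 92.1 CPM in state 3 in WT, 2.88 times apart, and 267.3 and 83.6 CPM in cKO, 3.20 times apart. The Rgs5-bearing state 3 was thus the lowest for Cnn1 in both libraries, a gene known as a marker of differentiated smooth muscle. Actg2, the enteric smooth muscle actin, was also higher in state 1 (468.7 CPM in WT, 523.0 in cKO) than in state 3 (296.7 and 297.9), and it is among the genes that led state 1. Myh11, the smooth muscle myosin heavy chain, had 4.08 and 3.22 CPM in state 1.

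**Figure D1:**
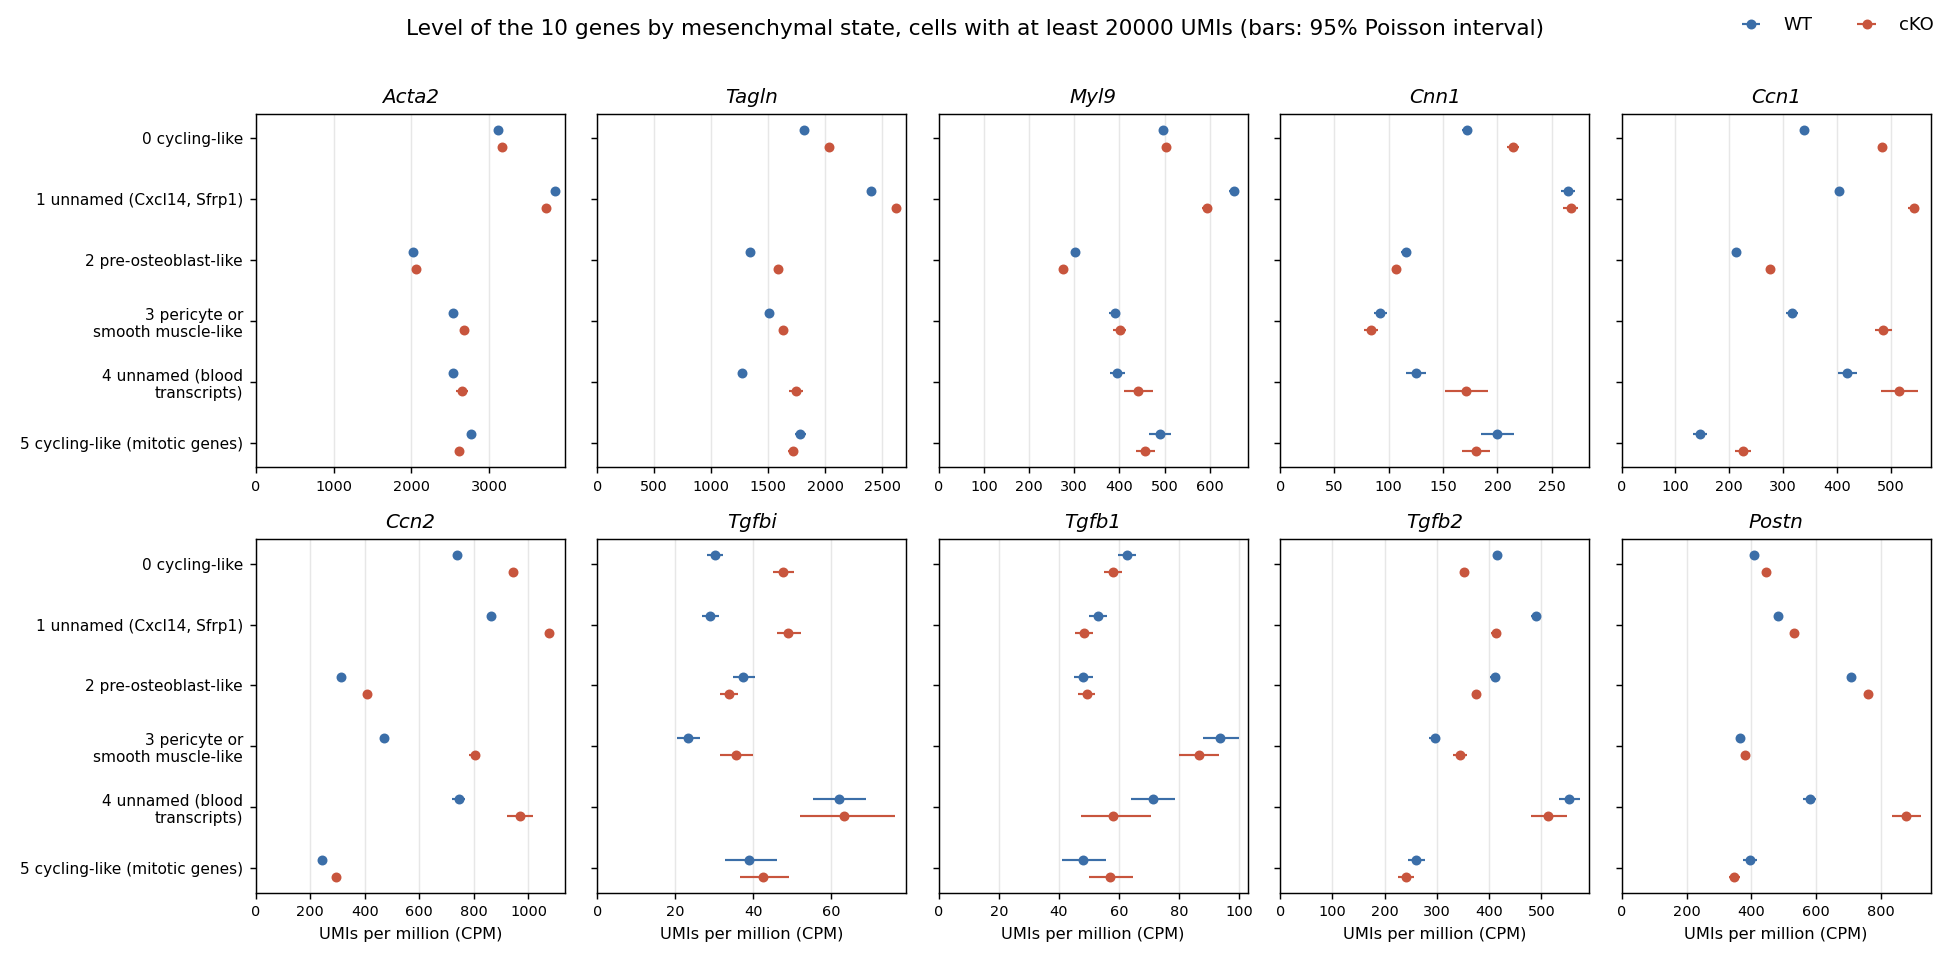
Level of each member (CPM, linear axis from 0) in the 6 mesenchymal states of cells with at least 20000 UMIs. Points are the summed level of 1 library and bars the 95% Poisson interval; the contractile genes are highest in state 1 in both libraries, Ccn1 and Ccn2 are lowest in state 5, and Tgfb1 is highest in state 3.

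The CCN genes were ordered otherwise. Ccn2 peaked in state 1 (861.3 CPM in WT, 1075 in cKO) and was lowest in the mitotic state 5 (243.1 and 295.1), a span of 3.54 times in WT and 3.64 times in cKO. Ccn1 was also lowest in state 5, at 145.8 CPM in WT against 225.3 in cKO. At the top, its states 1 and 4 overlapped in both libraries. In the pre-osteoblast-like state 2 Ccn2 stood at 312.5 CPM in WT against 406.6 in cKO, and Ccn1 at 213.0 and 275.9 CPM.

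Postn was the member with its peak in the pre-osteoblast-like state in WT, at 705.5 CPM against 365.8 CPM in state 3. In cKO it stood at 760.3 CPM in state 2 and at 876.6 CPM in state 4, which holds 31 cKO cells. Tgfb1 was highest in state 3 in both libraries, at 93.7 CPM in WT (87.9 to 99.9) and 86.5 CPM in cKO (80.1 to 93.3), while the other states lay between 47.9 and 71.2 CPM. Tgfb2 was highest in state 4 (553.2 and 513.0 CPM), followed by state 1 (488.6 and 412.4), and lowest in state 5 (260.4 and 240.0). Tgfbi had its highest level in state 4 in both libraries (61.9 and 63.3 CPM), where macrophage markers summed to 1239 CPM in WT against 1332 in cKO. The part of those blood cell transcripts in the Tgfbi level of state 4 was not tested. In cKO no neighbouring states in the order of Tgfbi were separated beyond their intervals.

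Ccn1 and Ccn2 were higher in cKO in each of the 6 states. Ratios of Ccn1 were 1.43, 1.34, 1.30, 1.54, 1.23 and 1.55 in states 0 to 5, and those of Ccn2 were 1.28, 1.248, 1.30, 1.71, 1.30 and 1.21. Tagln was higher in cKO in states 0 to 4, with ratios from 1.08 to 1.37, and lower in state 5 (0.962). Acta2 stayed between 0.946 and 1.06. Tgfb2 was lower in cKO in each state but state 3, where it was 295.7 CPM in WT against 343.4 in cKO (ratio 1.16, 1.102 to 1.22). Whether the ratio of Tgfb2 differs between states was not tested.

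State 3 held the largest ratios of Ccn2. There Ccn2 stood at 468.7 CPM in WT against 802.9 in cKO (ratio 1.71, 1.65 to 1.78), Ccn1 at 316.3 and 485.6 CPM, a ratio of 1.54 (1.46 to 1.61), and Tgfbi at 23.3 and 35.5 CPM, a ratio of 1.52 (1.28 to 1.82). These 3 of 10 members were at least 1.5-fold higher, against 1.62% of the 8809 genes measured in that state, and none was 1.5-fold lower (0.84% of genes). Other markers were also higher in cKO in state 3: Thy1, a stromal surface protein (42.2 CPM in WT, 76.8 in cKO), Cspg4 (17.9 and 32.4), Mcam (30.9 and 48.3), Myocd (5.80 and 10.9), Cxcl14 (31.1 and 57.1) and Ibsp (43.3 and 77.8). These rises were not particular to state 3. Mcam was higher in cKO in every other state, Cspg4 in all but state 4 and Thy1 in all but state 0. Cxcl14 was also higher in states 0, 1 and 5, Myocd in states 0, 2 and 5, and Ibsp in states 0, 1 and 4. Of the remaining pericyte and smooth muscle markers, Rgs5, Notch3, Abcc9 and Lmod1 (34.4 and 51.8) were higher in state 3 too. Kcnj8 (1.28 and 0.128), Higd1b (4.91 and 2.69) and Des (8.06 and 6.66) were lower, and Myh11 and Actg2 were nearly equal. The 12 pericyte and smooth muscle markers summed to 562.1 CPM in WT against 638.7 in cKO, with 7 and 8 of them at 10 CPM or more. State 1 had a higher sum of the same markers, 596.8 CPM in WT and 657.0 in cKO, with 3 and 4 at 10 CPM or more. Most of that was Actg2 (468.7 and 523.0 CPM). The sum of this list thus did not set state 3 apart from state 1. In state 3 the 8 chondrocyte markers summed to 134.3 and 325.5 CPM, with Snorc at 0 in both and Col9a1 at 0 in cKO. The part of an unequal cell make-up of state 3 in these ratios was not tested. In states 0 and 1 Tgfbi was the single member past 1.5-fold, at 1.58 (1.45 to 1.73) and 1.69 (1.53 to 1.86), where 0.915% and 1.03% of genes were at least 1.5-fold higher. None of the members was past it in state 2, where the shares of genes were 1.33% higher and 1.57% lower. Postn in state 4 (1.51, 1.42 to 1.61) and Ccn1 in state 5 (1.55, 1.39 to 1.72) were the single members there, against 4.31% and 3.1% of genes. Lower by at least 1.5-fold were 0 members in states 0, 1, 4 and 5, beside 0.457%, 0.542%, 5.34% and 2.24% of genes.

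**Figure D2:**
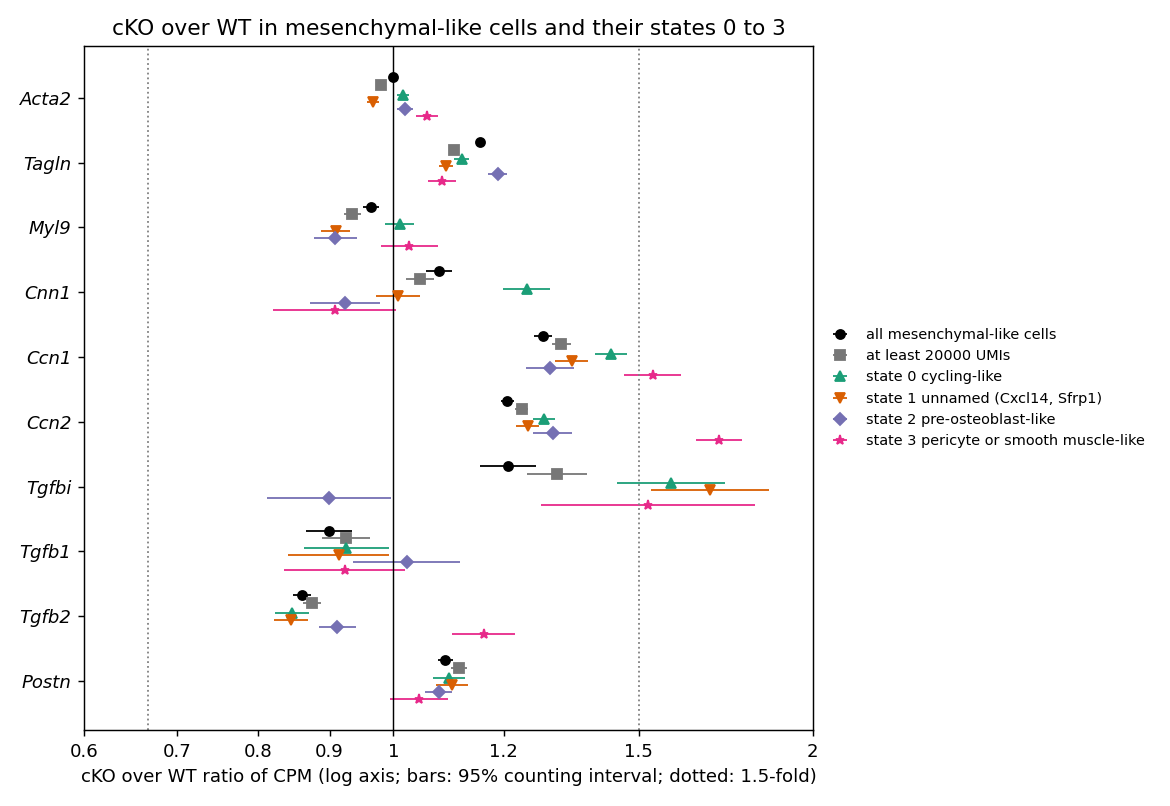
Ratio of CPM, cKO over WT (log axis), of each member in all mesenchymal-like cells, in those with at least 20000 UMIs and in states 0 to 3. Bars are 95% counting intervals and dotted lines mark 1.5-fold either way; Ccn1 and Ccn2 lie right of 1 throughout, reaching 1.54 and 1.71 in state 3, and Acta2 lies close to 1.

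Immediate early genes, which respond within minutes to serum, stress and handling, were also mostly higher in cKO in mesenchymal-like and macrophage-like cells. In all mesenchymal-like cells 13 of 16 such genes with at least 10 CPM were higher in cKO, against 41.7% of all 8951 genes, with a median log2 ratio of 0.35, among them Egr1 (46.3 CPM in WT, 69.2 in cKO) and Dusp1 (41.0 and 59.2). In state 3 it was 17 of 18, where 51.7% of genes were higher, with a median of 0.69, and 11 were at least 1.5-fold higher (1.62% of genes). In macrophage-like cells 11 of 13 were higher, with a median of 0.28, against 45.2% of genes. In endothelial-like cells (103 WT, 77 cKO) 6 of 16 were higher, with a median of -0.05, against 49.0% of genes. Ccn1 there stood at 398.1 CPM in WT against 593.2 in cKO (ratio 1.49, 1.37 to 1.62). Ccn2 there differed less, at 881.6 CPM in WT against 1020 in cKO. The list was added after the values of the CCN genes had been seen, and its part in their ratios was not tested.

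Co-detection was compared at equal depth. After thinning to 20000 UMIs, all 4 contractile genes had a UMI in 1177 of 1688 WT cells, or 69.7% (67.5 to 71.9, exact Clopper-Pearson), and in 793 of 1147 cKO cells, or 69.1% (66.4 to 71.8). This left out 2149 WT and 294 cKO mesenchymal-like cells of lower depth. Without thinning the shares were 57.1% and 71.9%, at the unequal depths given above. Macrophage-like cells, which should lack these genes, had all 4 in 9 of 300 WT cells (3.0%) and in 1 of 199 cKO cells (0.503%) at the same depth. Mesenchymal-like cells with none of the 4 were 0.00% in WT, where 0 of 1688 cells allows up to 0.178%, and 0.0872% in cKO. Macrophage-like cells with none of the 4 were also few at this depth, 0.333% in WT and 1.0% in cKO. Having a UMI of at least 1 of these genes thus does not tell the 2 classes apart.

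By state, 82.7% of WT and 85.1% of cKO cells of state 1 held all 4, against 52.9% and 52.4% in state 2 and 54.3% and 50% in state 3. The intervals of state 1 (78.8 to 86.1 in WT, 80.5 to 88.9 in cKO) did not reach those of states 2 and 3. The other states were nearer to state 1. All 4 were held by 73.9% of WT and 80.6% of cKO cells in state 0. In state 4 the shares were 79.1% and 77.4%, and in state 5 81.1% and 73.6%. The intervals of states 4 and 5 overlapped those of state 1 in both libraries, and that of state 0 did so in cKO only. Cnn1 limited these shares: at 20000 UMIs it had a UMI in 70.9% of WT and 70.7% of cKO cells, while Acta2 had one in 99.6% and 99.6%, Tagln in 99.3% and 99.0%, and Myl9 in 96.1% and 93.5%. The median cell held 55 UMIs of Acta2 in WT and 53 in cKO, and 10% of cells held no more than 17 and 14.6. By these counts Acta2 was graded across mesenchymal-like cells of this depth. The part of free RNA in the cells with the fewest UMIs was not tested.

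The matricellular genes and ligands were detected unevenly. At 20000 UMIs the share of cells with a Tgfbi UMI was 36.7% in WT (34.4 to 39.1) and 40.5% in cKO (37.7 to 43.4), and the 10% of cells with the most Tgfbi held 52.6% and 53.6% of its UMIs. For Ccn2 the top 10% held 30.06% and 30.03%, and for Acta2 21.9% and 22.4%. Tgfb1 had a UMI in 63.8% and 64.1% of cells, and Tgfb2 in 97.3% and 96.8%. Such shares can include free RNA from other cells: without thinning, 77.5% of WT and 62.9% of cKO neutrophil-like cells (medians of 7197 and 9628 UMIs) also had an Acta2 UMI, in a class that should lack the gene.

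Across these thinned cells the contractile genes varied together. Correlations are Pearson r of ln(UMIs + 1) over 1688 WT and 1147 cKO cells, which share a library and a depth, and they mix states. Acta2 and Tagln had r of 0.77 in WT and 0.78 in cKO, Acta2 and Myl9 0.67 and 0.73, and Acta2 and Cnn1 0.49 and 0.57. Ccn1 and Ccn2 formed a second pair, at 0.65 and 0.70. Ccn2 also varied with the contractile genes: its r was 0.40 and 0.51 with Acta2 and 0.41 and 0.50 with Myl9, close to the 0.44 and 0.52 between Myl9 and Cnn1. Acta2 and Postn were at 0.00 and 0.04. The ligand Tgfb1 had r between -0.11 and 0.02 with the other members in either library, and at counts this low a weak r says little.

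**Figure D3:**
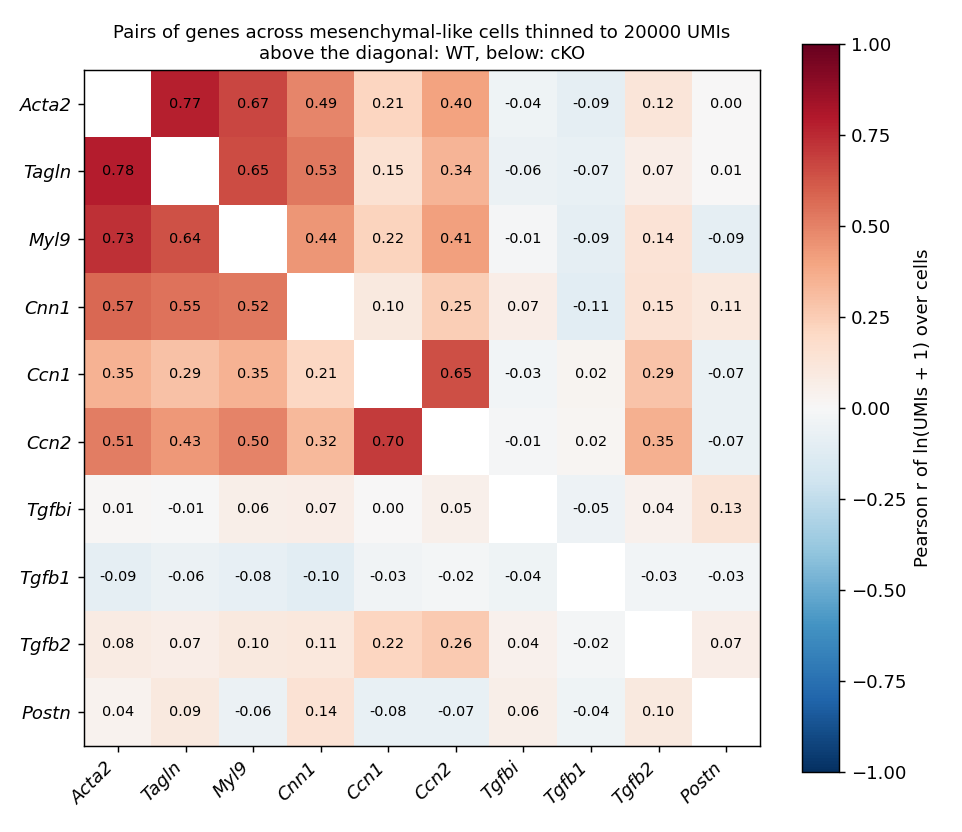
Pearson r of ln(UMIs + 1) for each pair of members over mesenchymal-like cells thinned to 20000 UMIs, WT above the diagonal (1688 cells) and cKO below it (1147 cells). Acta2, Tagln, Myl9 and Cnn1 form one block in both libraries, with r from 0.44 to 0.78, and Ccn1 with Ccn2 another, at 0.65 and 0.70.

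Among 8662 genes compared, the nearest to Acta2 by the mean r of the 2 libraries were Tagln (0.78), Tpm2 (0.71), Myl9 (0.70), Actb (0.66) and Myl6 (0.64). Tpm2 encodes a tropomyosin, Actb a cytoplasmic actin and Myl6 a myosin light chain. Among those nearest to Ccn2 were Ccn1 (0.67), Actn1 (0.58), which encodes an actin crosslinker, and Thbs1 (0.53), which encodes a matricellular thrombospondin. Nearest to Postn were Tnn (0.42), Cthrc1 (0.33), Col1a1 (0.33), Mmp2 (0.32) and Loxl2 (0.31), which encode secreted matrix proteins or their modifying enzymes. For Tgfbi the nearest gene, Col12a1, reached 0.15, and the others, Igf1r, Aspn, Dkk3 and Myh10, were lower. Tgfbi had a mean of 0.693 UMIs per thinned WT cell, and at that count a weak r says little.

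The rest of the pathway was read in mesenchymal-like cells from lists of related genes, counting those that reached 10 CPM in 1 or both libraries. Among all 8951 genes that did so 41.7% were higher in cKO, the share to set beside the whole-class count of each list below. Of 13 ligand and latency genes 6 were higher and 7 lower in cKO, a split that became 8 and 5 with TMM scaling. Ltbp2, a latent TGF-beta binding protein homologue, was at 67.8 CPM in WT and 83.8 in cKO (1.24). Tgfb3, the third ligand, was at 112.0 and 96.9 CPM (0.865), and Itgb8, an integrin chain that activates latent TGF-beta, at 13.2 and 11.02 CPM (0.837). The receptor genes split by state, with 3 of 5 higher in states 0, 1 and 3, 1 in state 2 and 2 in states 4 and 5. The shares of all genes by state are given below with the contractile genes. In all mesenchymal-like cells 4 of the 5 receptor genes were lower. Tgfbr2, the type II receptor, was at 97.1 CPM in WT and 77.0 in cKO (0.793, 0.769 to 0.818), Tgfbr1 at 60.7 and 54.6 (0.899), Acvr1 at 128.8 and 119.6 (0.929) and Eng at 28.5 and 27.5 (0.964, 0.912 to 1.02).

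Among 12 SMAD and regulator genes 5 were higher and 7 lower (median -0.03, as for all genes). The inhibitory Smad7, itself a TGF-beta target, was at 79.3 CPM in WT and 105.8 in cKO (1.33, 1.29 to 1.38), and Smad3, a receptor-activated SMAD, at 98.8 and 82.0 (0.831, 0.806 to 0.856). Skil, a SMAD corepressor, stood at 52.1 and 57.3 CPM, and Bambi, a pseudoreceptor, at 11.7 and 13.1 CPM. Of 22 TGF-beta target genes 13 were higher and 9 lower (median 0.10). Il11, a cytokine induced by TGF-beta in fibroblasts, stood at 4.53 CPM in WT and 18.1 in cKO, a ratio of 3.99 (3.60 to 4.44), and Hmga2, a chromatin protein, at 57.1 and 93.6 (1.64). Snai1, a transcription factor of epithelial-mesenchymal transition, was at 17.7 and 24.5 (1.39), and Fap, a fibroblast surface protease, at 28.8 and 21.5 (0.746).

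Other genes of the contractile programme were split. Of 26 contractile and SRF genes 7 were higher and 19 lower (median -0.04), which became 12 and 14 with TMM scaling. Among all 8951 genes 41.7% were higher. By state the split was 13 higher and 14 lower in state 0, 16 and 10 in state 1 and 8 and 18 in state 2. It was 14 and 14 in state 3, 15 and 11 in state 4 and 4 and 23 in state 5. Of all genes, 48.8%, 48.9%, 45.2%, 51.7%, 46.0% and 49.7% were higher in states 0 to 5. Mylk, the kinase that phosphorylates the light chain encoded by Myl9, was at 208.9 CPM in WT and 155.3 in cKO (0.744, 0.728 to 0.760). Fhl1, a LIM protein, was at 49.4 and 38.4 (0.777), Mrtfb, an SRF cofactor, at 51.9 and 45.5 (0.875), and Srf itself at 15.6 and 19.6 (1.254). Of 20 YAP and TEAD genes 19 were lower in cKO (median -0.10), 18 with TMM scaling and 14 with equal weight per cell, while Ccn1 and Ccn2 were higher under each of these. The same 41.7% of all genes applies to that count, and by state fewer of the list were lower: 13 of 20 in states 0 and 2, 16 of 21 in state 1, 12 of 20 in state 3, 10 of 22 in state 4 and 14 of 20 in state 5. The shares of all genes by state just given apply to these counts too. Dlc1 was at 485.1 and 415.2 CPM (0.856), Crim1 at 158.8 and 136.5 (0.860) and Ankrd1 at 24.8 and 21.6 (0.872). Axl, a receptor tyrosine kinase, was the exception at 97.8 and 108.8 (1.11).

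Of 15 further matricellular and matrix genes 5 were higher and 10 lower (median -0.05). Tnn, the tenascin whose UMIs lay nearest to those of Postn, stood at 194.5 CPM in WT and 291.5 in cKO (1.499, 1.47 to 1.53), and Spp1, which encodes osteopontin, at 2080 and 2731 (1.31). Aspn, a proteoglycan that binds TGF-beta, was at 40.3 and 22.7 (0.564), and Fbln1, a fibulin, at 26.7 and 21.4 (0.799). None of the lists had a median further from 0 than 0.11 except the immediate early genes.

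**Figure D4:**
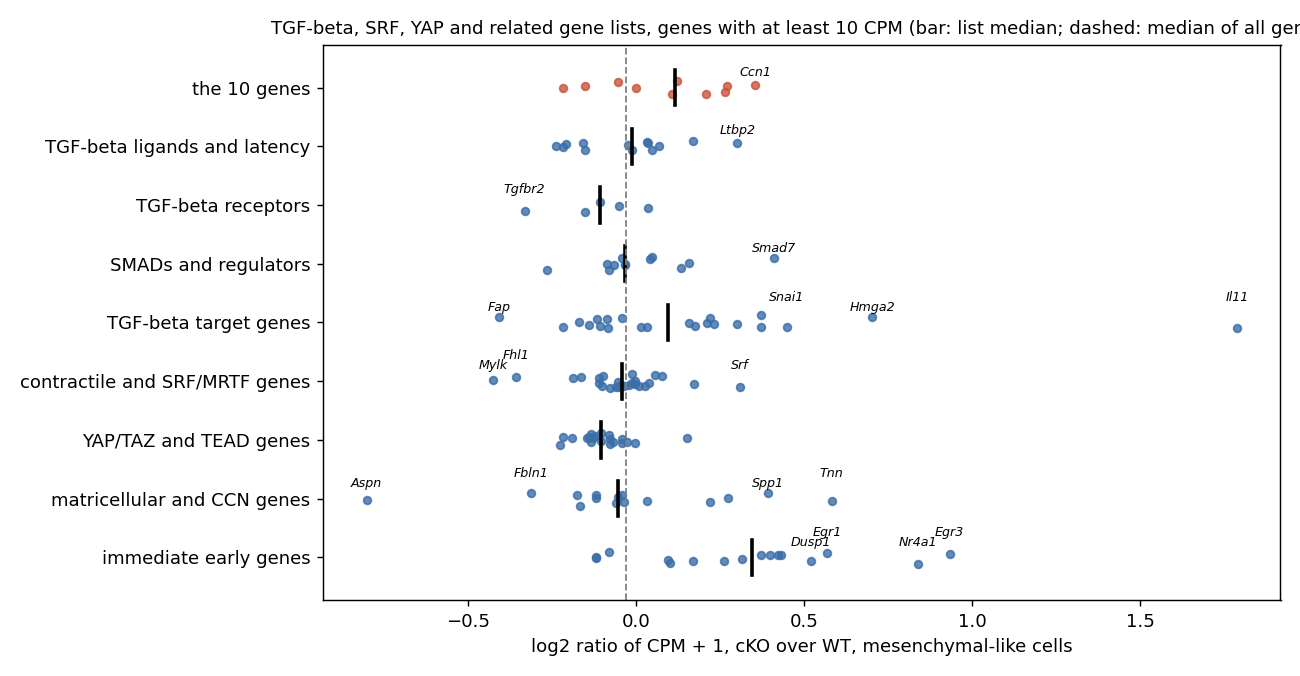
Log2 ratio of CPM + 1, cKO over WT, in mesenchymal-like cells for the 10 members and the genes of each list with at least 10 CPM; each point is a gene, bars are list medians and the dashed line the median of all genes (-0.03). Il11 stands furthest right at a log2 ratio of 1.79, most YAP and TEAD genes lie left of 0, and immediate early genes have the rightmost median, 0.35.

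Outside the mesenchymal-like cells the members split into groups. Of the UMIs of Acta2, Tagln, Myl9, Cnn1, Postn and Tgfb2, between 94.7% and 97.7% came from mesenchymal-like cells, while for Tgfb1 that share was 44.1% in WT and 44.6% in cKO, and for Tgfbi 42.3% and 39.0%. Macrophage-like cells held 44.6% and 41.5% of Tgfb1 UMIs and 51.5% and 48.9% of Tgfbi UMIs. These shares also follow how many cells and how much RNA each class gave.

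Among classes with at least 20 cells in each library, Tgfbi was highest in osteoclast-like cells. In the larger osteoclast-like cluster it stood at 347.1 CPM in WT (31 cells; 303.6 to 395.1) against 324.7 in cKO (59 cells; 295.5 to 356.1), with a ratio of 0.935 (0.796 to 1.102). A further 13 cKO cells called osteoclast-like, in a cluster with no WT cell, were led by immunoglobulin genes and were left out here. Macrophage-like cells had Tgfbi at 149.2 CPM in WT against 190.4 in cKO (ratio 1.28, 1.22 to 1.33). Neutrophil-like cells had 73.6 and 127.2 CPM, a ratio of 1.73 (1.47 to 2.03), where 1.94% of genes were at least 1.5-fold higher. In each of these blood classes of both libraries Tgfbi stood above its level in mesenchymal-like cells.

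Among the same classes Tgfb1 was highest in endothelial-like cells in both libraries, at 274.8 CPM in WT (103 cells; 256.2 to 294.3) against 210.9 in cKO (77 cells; 191.5 to 231.7), with a ratio of 0.767 (0.681 to 0.863). Macrophage-like cells followed at 214.3 and 181.9 CPM, a ratio of 0.849 (0.817 to 0.882). In cKO the interval of the macrophage-like cells did not reach that of the endothelial-like cells (176.6 to 187.4). That of the 71 T or NK cell-like cells of cKO did, at 166.5 CPM (130.7 to 209.0). Mesenchymal-like cells thus had the lowest Tgfb1 of the classes plotted here, in both libraries.

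Endothelial-like cells shared the CCN genes with mesenchymal-like cells. Ccn2 stood at 881.6 CPM in WT against 1020 in cKO, above the mesenchymal level of both libraries, and its ratio was 1.16 (1.09 to 1.23). Tagln in these cells was at 194.2 CPM in WT against 367.8 in cKO (ratio 1.89, 1.70 to 2.11), and Tgfb2 at 138.2 and 194.8 CPM, a ratio of 1.41 (1.23 to 1.62). Tagln and Tgfbi (1.53, 1.01 to 2.32) were the 2 members at least 1.5-fold higher, against 5.56% of 9118 genes, and 0 were 1.5-fold lower (4.65%). Mesenchymal markers summed to 1202 CPM in WT against 1383 in cKO in these cells, with Lum at 0 in both and Dcn at 0 in cKO. The 12 pericyte and smooth muscle markers summed to 800.0 CPM in WT against 509.2 in cKO, and 4 of them reached 10 CPM in each library. Most of that sum was Mcam (573.1 and 431.0 CPM), which endothelial cells also express, followed by the channel subunits Abcc9 (104.2 and 35.0) and Kcnj8 (103.2 and 28.2). At 0 in both libraries were Rgs5, Myh11, Cspg4 and Des, and Higd1b was at 0 in cKO. The part of mesenchymal or pericyte transcripts in the Tagln ratio was not tested.

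Macrophage-like cells carried low levels of the contractile genes. Acta2 stood there at 309.0 CPM in WT against 266.2 in cKO, 10.6% of the mesenchymal level in WT, and mesenchymal markers summed to 1121 CPM in WT against 962.9 in cKO. Acta2 and Tagln were not in one proportion across classes. There were 1.70 Acta2 UMIs per Tagln UMI in WT mesenchymal-like cells and 1.47 in cKO. Macrophage-like cells had 3.59 and 3.34, and neutrophil-like cells 3.56 and 3.23. T or NK cell-like cells had 2.08 and 4.73, the latter from 11 Tagln UMIs. The unnamed cluster described below had 1.34 and 1.33. None of the 10 members was past 1.5-fold in macrophage-like cells, where 0.655% of 8856 genes were higher and 1.04% lower. Tgfb2 was nearest to it, at 16.7 CPM in WT against 11.7 in cKO (ratio 0.704, 0.607 to 0.816). In neutrophil-like cells Acta2 was at 192.6 CPM in WT against 100.1 in cKO (ratio 0.520, 0.457 to 0.590), and mesenchymal markers there summed to 651.2 and 319.5 CPM. Acta2 was 1 of 6 members at least 1.5-fold lower in that class, against 4.68% of 8489 genes. The 1 member at least 1.5-fold higher there was Tgfbi, against 1.94% of genes. The part of free mesenchymal RNA in the levels of the blood cell classes was not tested.

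**Figure D5:**
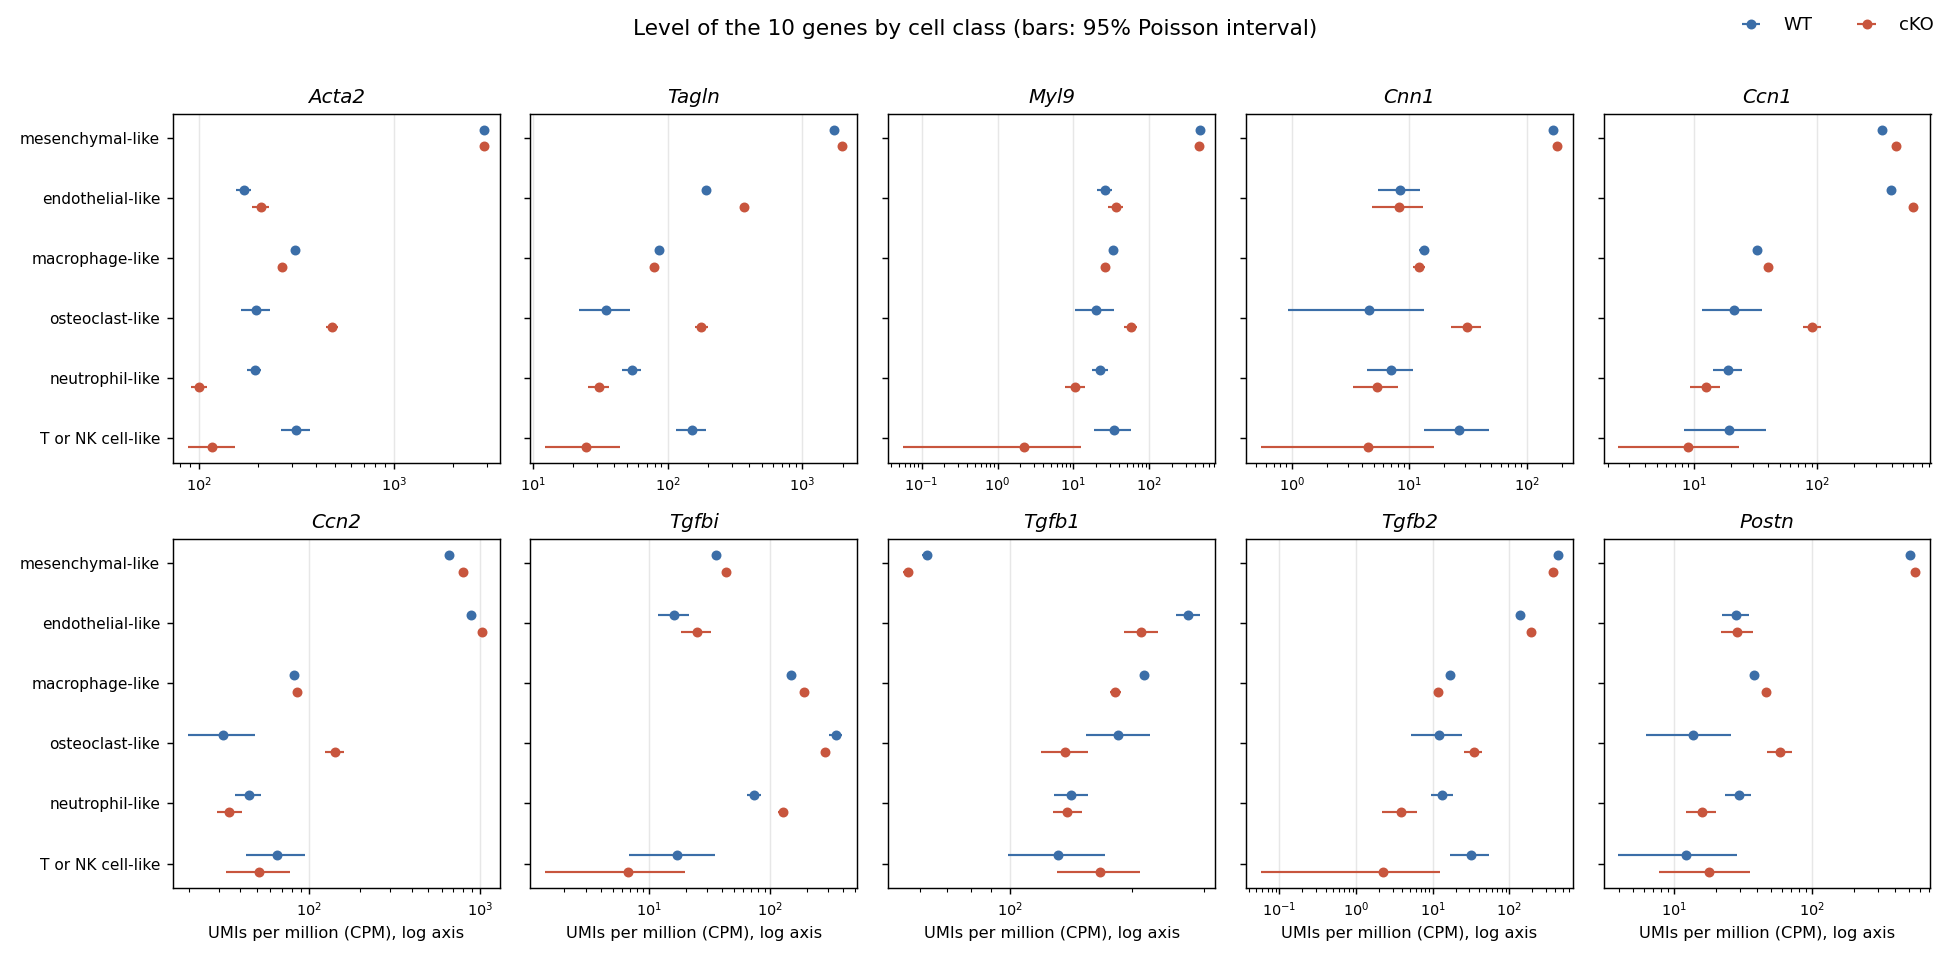
Level of each member (CPM, log axis) in 6 cell classes of each library, with 95% Poisson intervals; the osteoclast-like class includes the 13 cKO cells of the smaller cluster. The contractile genes, Tgfb2 and Postn are highest in mesenchymal-like cells, Tgfbi in osteoclast-like cells and Tgfb1 in endothelial-like cells.

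The highest contractile levels of all lay outside the named classes. An unnamed cluster of 163 WT and 380 cKO cells held Acta2 at 3956 CPM in WT against 4206 in cKO, Tagln at 2959 and 3156, Myl9 at 804.5 and 804.0, and Cnn1 at 283.4 and 338.1. Its other members were low, with Ccn2 at 239.4 CPM in WT and 192.9 in cKO and Postn at 133.5 and 121.8. Cells of this cluster had a median of 2469 UMIs in WT and 2259 in cKO and a median mitochondrial share of 0.240% and 0.177%, against 3.66% and 3.91% in mesenchymal-like cells. Among its leading genes were Cmss1, Lars2 and Gm42418, and of the 12 pericyte and smooth muscle markers 5 were at least 2-fold above the mean of the clusters. The part of cell quality in these levels was not tested.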

How the data were processed

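From 2 droplet libraries (10x Genomics Chromium 3' v3), 1 per genotype, the deposited matrices gave raw UMI counts for each gene and barcode. Per the file headers they came from Cell Ranger 7.1.0; the submitters' processing notes name mm10 (GRCm38) and Seurat. The handling of intronic reads is not stated. The gene list assigned to each library carries the other genotype in its name, and both lists are identical, so the values do not depend on which is used.

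Barcodes with fewer than 500 genes, fewer than 1000 UMIs or over 15% mitochondrial UMIs were dropped. Scrublet at its automatic threshold marked 2 cells per library and had not worked, so the cells with the highest scores (0.8% per 1000 cells; 534 WT and 243 cKO) were removed. Counts were scaled to 10000 per cell, log-transformed and clustered for both libraries together with scanpy 1.11.5 and leidenalg 0.10.2 (2000 variable genes without the 10 members, 30 components, 15 neighbours, resolution 0.5, no batch correction). Clusters took the class with the highest mean log2 marker level over the mean of clusters, among classes with at least 3 markers 2-fold (for states 1.5-fold) above that mean, if the score was above 0. A name was dropped where markers of another class were more numerous among the 10 leading genes (cluster 16), or where the median depth was under 1/3 of the library's and no marker of the name led (clusters 9 and 12). A state also needed 1 of its markers among those 10. Cluster 6, with the highest contractile levels, had no such score above 0. The members, lists and naming rule were chosen with earlier results of these data known.

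A first re-clustering, over all mesenchymal-like cells without thinning, gave 10 clusters, of which 8 stayed unnamed, several of them led by blood cell transcripts; 1 was cycling-like and 1 pericyte or smooth muscle-like (23 WT and 24 cKO cells). After that result was seen, states were instead drawn from cells with at least 20000 UMIs, thinned to 20000, and the pericyte list was added to the names.

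UMIs were summed per library and class, and CPM, computed here from the deposited counts, is that sum scaled to a class total of 1000000. A level needed at least 20 cells in a library. Levels carry exact Poisson intervals, ratios exact conditional binomial intervals and shares exact Clopper-Pearson intervals. Log2 ratios used a prior of 1 CPM. No p-value is given. Cells are not replicates, and differences between mice, cultures and captures are in no interval. Genes named beside the members were the up to 4 of each list with the largest absolute log2 ratio and the 5 nearest by correlation to Acta2, Ccn2, Tgfbi and Postn. Of those nearest to Ccn2, 2 are not reported here. Cell type markers used to describe a state, and endothelial or neutrophil values, were chosen after they were seen. TMM factors came from edgeR 4.0.16.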

Additional observations from a re-analysis of the deposited data

Results flagged for a closer look

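Tagln stood on opposite sides of 1 in mesenchymal-like and macrophage-like cells. Its ratio, cKO over WT, was 0.925 (0.872 to 0.982) in macrophage-like cells and 1.15 (1.15 to 1.16) in mesenchymal-like cells. In macrophage-like cells Tagln stood at only 86.2 CPM in WT against 79.8 in cKO, 5.04% and 4.04% of the mesenchymal-like level. The part of free mesenchymal RNA in those levels was not tested. The mesenchymal-like ratio ran from 1.10 to 1.28 under the 11 alternatives, and Tagln was nearly equal between libraries in those cells under 20000 UMIs. The difference between these classes was not tested, since there is 1 library per group. Only this pair of classes was compared in this way, a choice made after the values had been seen.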

How the results depend on the processing

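Under the 11 alternatives of cells and scaling, 0 members were 1.5-fold higher and 0 were 1.5-fold lower, and the median log2 ratio of the members ran from 0.09 to 0.14, beside -0.04 to 0.00 over all genes. The share of cells with all 4 contractile genes was 66.6% in WT and 65.3% in cKO among cells with a Prrx1 UMI, 58.0% and 57.2% after thinning to 10000 UMIs, and 36.8% and 38.4% after thinning to 5000. The ratio of Myl9 turned to 1.03 with equal weight per cell, and that of Acta2 ran from 0.981 to 1.04. Members with a ratio above 1 numbered 7 with TMM scaling and 8 with equal weight per cell, beside median log2 ratios of -0.005 and -0.038 over all genes. Leaving out the low-depth mesenchymal-like cluster, an alternative chosen after seeing the data, gave a median of 0.10. No paired analysis was possible because each genotype has 1 library. Depth limits Tgfbi and Tgfb1, whose mean at 20000 UMIs was about 1 UMI per cell (0.693 and 1.23 in WT).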
